A study of Mus musculus with 2 samples.

Results

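The cells described here are inhibitory neurons of the ventral parafacial region, a part of the rostral ventrolateral medulla that takes part in the control of breathing, selected as a C1ql2 Prox1 group. They were 112 of the 457 inhibitory neurons found among the 12395 barcodes that passed the cell filters, out of 14008 deposited barcodes. A barcode was kept with at least 800 genes, at most 50 hemoglobin unique molecular identifiers (UMIs, each one counted transcript) and at most 20% mitochondrial UMIs. It was called an inhibitory neuron with at least 1 UMI of *Slc32a1* and at least 2 UMIs summed over *Gad1*, *Gad2* and *Slc6a5*. Members were then chosen by measured values: the sum of *C1ql2*, *Prox1* and *Megf11* UMIs had to be at least 2 and strictly larger than the sums of the genes that define the other 4 groups, here called Fst Gpc4, Cck Tfap2b, Crhbp En1 and Tac2 Tacr3. The values of these genes are therefore a description of the selection and not a result.

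The series has 2 libraries, 1 per condition, each made from 8 pooled C57BL6/J mice (4 male and 4 female) at 10 days of age, with 10x v2 chemistry, from tissue cut out of brainstem slices and dissociated with protease. The untreated library (batch 1) came from wild-type mice and the 4OH-tamoxifen library (batch 2) from mice that received 0.2 mg of 4OH-tamoxifen daily for 3 days. The 3767 untreated barcodes had a median depth of 3455 UMIs and the 10241 barcodes of the other library one of 2316 UMIs. Since condition, batch and library coincide, an effect of the drug cannot be told apart from a difference between libraries, and no test between conditions was made. Intervals are exact 95% intervals that cover counting error only, not the spread between mice. The libraries held 40 barcode sequences in common, and 1 of them belonged to a member.

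As background, inhibitory neurons of the medulla release GABA, glycine or both. *Slc32a1* encodes the vesicular transporter that loads both transmitters, *Gad1* and *Gad2* the enzymes that make GABA, and *Slc6a5* the plasma membrane glycine transporter of glycinergic terminals. *C1ql2* encodes a secreted C1q-like protein that organizes synapses, *Prox1* a homeobox transcription factor known from dentate granule cells, lymphatic endothelium and classes of cortical interneurons, and *Megf11* a transmembrane protein with EGF repeats that helps to space retinal neurons of the same kind. Somatostatin, encoded by *Sst*, is a neuropeptide stored in dense core vesicles and released by many classes of inhibitory neurons.

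Members made up 24.5% of inhibitory neurons (20.6 to 28.7). In the untreated library they were 32 of 94, or 34.0% (24.6 to 44.5), and in the 4OH-tamoxifen library 80 of 363, or 22.0% (17.9 to 26.7). A median member had 5173 UMIs and 2546 genes. The untreated members were deeper (median 9544 UMIs) than those with 4OH-tamoxifen (median 4486 UMIs), and the shallowest member had 2156 UMIs. Among the other 345 inhibitory neurons the median depth was 4509 UMIs, or 7574 and 4247 in the untreated and the 4OH-tamoxifen library. Depth thus differed more between libraries than between members and others, and for the main genes the share of cells is given also after every cell was thinned to 2000 UMIs, a depth that all 112 members and 328 of the 345 other inhibitory neurons reached.

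The rule sum of members ran from 2 to 17 UMIs with a median of 4. At the edge, 21 members had the lowest sum allowed (1 untreated and 20 with 4OH-tamoxifen), and in 10 of these another group's sum was only 1 UMI lower. Just outside, 14 inhibitory neurons had a sum of 1 with all 4 other sums at 0, 9 had a sum of at least 2 that tied with another group, and 12 had a larger sum for another group. All 3 rule genes were found in 41 members, a pair of them in 52 and a single one in 19. *C1ql2* was found in 69.6% of members, *Prox1* in 82.1% and *Megf11* in 67.9%. In the untreated library *C1ql2* stood at 461 UMIs per 1000000 (CPM) in members and 23.7 CPM in other inhibitory neurons, and with 4OH-tamoxifen at 250 and 13.1 CPM. *Prox1* stood at 261 and 321 CPM in members of the untreated and the 4OH-tamoxifen library, and *Megf11* at 241 and 227 CPM. Their background in microglia-marked cells, 1137 cells with at least 10 UMIs of 7 microglial genes and no *Slc32a1*, was a share of 0.440% for *C1ql2*, 3.52% for *Prox1* and 1.23% for *Megf11*. The median depth of these cells was 2993 UMIs.

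The start-site windows of the group's marker genes are given next, as context for the 3 rule genes and for *Sst*, the peptide gene found in most members. In GRCm38 (GENCODE M21), *C1ql2* spans chromosome 1 from 120340582 to 120343174 on the plus strand and *Prox1* chromosome 1 from 190118035 to 190170714 on the minus strand, *Megf11* lies on chromosome 9 from 64385626 to 64709205 and *Sst* on chromosome 16 from 23889573 to 23890958. RefSeq start-site windows (GRCm38.p6), which reach from 250 bases before to 50 bases after the start of transcription, were found for 3 of these 4 genes, and for *Prox1* the most upstream of its 2 entries was taken. They are written from 5′ to 3′ on the gene's own strand, at chr1:120340332-120340631 for *C1ql2*, chr1:190170778-190171077 for *Prox1* and chr16:23890795-23891094 for *Sst*. For *Prox1* and *Sst* the RefSeq starts of transcription differ from the starts of the GENCODE genes, and distances below are counted from the RefSeq starts. Capitals mark matches on either strand to 3 short motifs that do not overlap here. The full cAMP response element is spelled TGACGTCA. The TATA box was searched as TATAAA. A GC box, the site of Sp factors, was searched as GGGCGG.
C1ql2: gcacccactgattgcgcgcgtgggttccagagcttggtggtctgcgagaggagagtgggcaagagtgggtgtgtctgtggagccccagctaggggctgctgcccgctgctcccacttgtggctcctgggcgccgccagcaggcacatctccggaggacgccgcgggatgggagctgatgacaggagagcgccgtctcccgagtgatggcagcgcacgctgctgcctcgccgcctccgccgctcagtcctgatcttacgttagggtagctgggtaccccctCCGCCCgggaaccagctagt
Prox1: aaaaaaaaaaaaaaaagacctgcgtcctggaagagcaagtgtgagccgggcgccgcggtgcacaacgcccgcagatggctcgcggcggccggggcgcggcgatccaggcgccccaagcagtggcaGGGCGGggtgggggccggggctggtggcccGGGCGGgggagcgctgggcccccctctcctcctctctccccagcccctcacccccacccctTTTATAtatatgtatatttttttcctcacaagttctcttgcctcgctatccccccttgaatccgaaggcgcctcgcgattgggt
Sst: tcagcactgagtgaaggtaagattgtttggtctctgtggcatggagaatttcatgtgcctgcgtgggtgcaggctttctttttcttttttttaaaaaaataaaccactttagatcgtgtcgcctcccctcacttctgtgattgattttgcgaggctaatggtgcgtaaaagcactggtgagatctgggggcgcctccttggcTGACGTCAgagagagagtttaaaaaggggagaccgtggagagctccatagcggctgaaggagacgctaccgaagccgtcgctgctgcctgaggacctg
The *Sst* window held TGACGTCA from base 203 to base 210, 48 bases before the start of transcription. This motif was in 1.79% of the 32851 RefSeq windows searched, which left out those of 1 chromosome. The *Prox1* window held TATAAA on the opposite strand, 34 bases before the start, a motif found in 13.6% of the windows searched. It also held the GC box, 125 and 95 bases before the start. In the *C1ql2* window the only match was a GC box 30 bases after the start, a motif that 35.7% of the windows searched held. These matches describe the letters of the windows and no binding was measured.

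The label of the group was checked against marker genes. All 112 members had *Slc32a1*, as the rule requires, and all had *Gad1* or *Gad2*. *Slc6a5* was found in 92 of them, so that 82.1% (73.8 to 88.7) of members carried transcripts of both a GABA-synthesizing enzyme and the glycine transporter. Among other inhibitory neurons 62.6% had *Slc6a5*, against 0.880% of microglia-marked cells, and after thinning the shares were 51.8% and 38.7%. *Slc6a5* also counts toward the rule for inhibitory neurons, so its share is a description. The 4 general neuron markers *Snap25*, *Syp*, *Tubb3* and *Elavl2* were detected in sum in every member. Genes of other transmitters were rare: 6 members carried a single UMI each of *Slc17a6*, *Slc17a8*, *Chat*, *Th* or *Tph2*, and no member had *Slc17a7*. Markers of glia were present too. The 7 oligodendrocyte markers summed to 10248 CPM in members and 8252 CPM in other inhibitory neurons, and the 7 astrocyte markers to 1719 and 1613 CPM, with UMIs of both lists in every member. Microglial markers summed to 85.4 and 176 CPM, endothelial markers to 60.8 and 84.0 CPM, and those of pericytes or fibroblasts to 20.3 and 55.8 CPM. Apart from the oligodendrocyte list, which is given by library further on, members thus carried about as much or less of these lists than other inhibitory neurons, and the part of free RNA or doublets in them was not tested.

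Most members carried *Sst*. It was found in 84 of 112 members, 75.0% (65.9 to 82.7), and in 114 of 345 other inhibitory neurons, 33.0% (28.1 to 38.3). The background in microglia-marked cells was 1.58%. After thinning, 61.6% of members and 28.7% of others had it, so the gap in shares remained at equal depth. In the untreated library an individual member had 0 to 63 *Sst* UMIs with a median of 9, and with 4OH-tamoxifen 0 to 26 with a median of 2. The other inhibitory neurons had a median of 0 in both libraries, yet reached 151 and 88 UMIs, so that single cells of the members and the others overlapped throughout. *Sst* was therefore found in more of the members, while its highest levels lay in cells outside the group.

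The summed level of *Sst* separated the sets less than the share did. In the untreated library it stood at 1879 CPM in members and 979 CPM in other inhibitory neurons, and with 4OH-tamoxifen at 950 and 856 CPM. Over both libraries the ratio of members to others was 1.51 (1.40 to 1.64). In the untreated library alone the ratio lay above this interval, and with 4OH-tamoxifen alone below it. The 5 members with most *Sst* held 30.0% of the members' *Sst* UMIs. At a fixed depth of 2000 UMIs the ratio was 1.21. Against the groups one by one, the share with *Sst* in members equalled that of the Tac2 Tacr3 group, at 75.0% of 28 cells (55.1 to 89.3). It was 47.4% (34.0 to 61.0) in the Fst Gpc4 group, whose summed level was higher than the members' at 2323 CPM untreated and 2011 CPM with 4OH-tamoxifen. The Crhbp En1 group had *Sst* in 17.2% of cells (8.90 to 28.7), and the Cck Tfap2b group in 0 of 82, where 3 counts of the total set an upper limit of 3.66%. Among unassigned inhibitory neurons 48.2% had it.

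**Figure D1:**
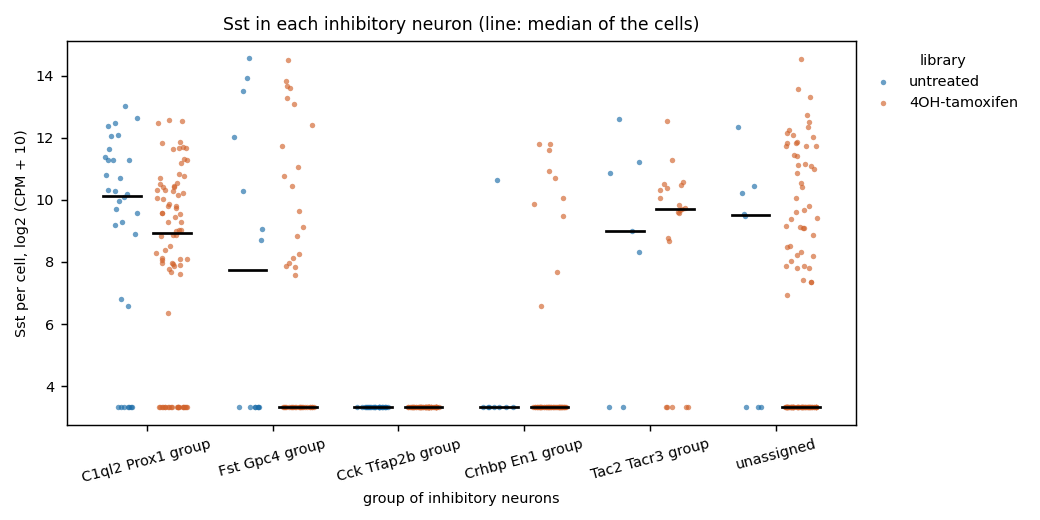
*Sst* in each inhibitory neuron as log2 of CPM plus 10 (vertical axis), by group (horizontal axis) and library (colour), with black lines at the median of the cells and undetected cells at the bottom. Members of the C1ql2 Prox1 group lie above the bottom line in 75.0% of cells, while the highest values are in the Fst Gpc4 group and 1 unassigned cell and all 82 cells of the Cck Tfap2b group are at 0.

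The other markers by which somatostatin neurons are often divided were next examined in members. *Reln*, which encodes the secreted glycoprotein reelin, was found in 66 of 112 members, 58.9% (49.2 to 68.1), and in 16.2% (12.5 to 20.6) of other inhibitory neurons, with 3.61% in microglia-marked cells. Its level was 170 CPM in members and 57.3 CPM in others in the untreated library, and 179 and 59.6 CPM with 4OH-tamoxifen, so that both libraries placed members about as far above the others. *Nos1*, the neuronal nitric oxide synthase, was found in 5 members, 4.46% (1.47 to 10.1), each with a single UMI, and in 15.1% of others, with 0.880% in microglia-marked cells. *Calb2*, which encodes calretinin, was likewise found in 5 members. Over both libraries *Nos1* stood at 7.24 CPM in members, 6.81 CPM in the Tac2 Tacr3 group and 15.2 CPM in the Cck Tfap2b group. The Fst Gpc4 and Crhbp En1 groups had it at 123 and 129 CPM. In the same order *Calb2* stood at 7.24, 6.81 and 2.17 CPM, and at 39.3 and 53.0 CPM. Low levels of both genes were thus not particular to members. *Pvalb*, which encodes parvalbumin, was found in 3 members, 2.68%, below the 4.05% of microglia-marked cells and hence at background. *Npy* and *Calb1* were found in 1 member each, and *Vip* in 0 of 112, a count with an upper limit of 2.68%. *Lamp5*, a membrane protein of inhibitory terminals, was found in 95.5% of members and 82.9% of other inhibitory neurons.

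Within members, *Reln* was found about as often with *Sst* as without it. Of the 84 members with *Sst*, 49 (58.3%) also had *Reln*, and of the 28 without *Sst*, 17 (60.7%) did. Both genes were found in 49 members, *Sst* alone in 35, *Reln* alone in 17 and neither in 11. A member without a UMI of a gene can still hold its transcript, and the depth of members with and without *Sst* was similar, with medians of 5152 and 5195 UMIs. *Bhlhe22* was found in 82.1% of members with *Sst* and in 53.6% of those without, and *Calca* in 59.5% and 39.3%. The gap for *Calca* lay mostly in the untreated library, at 92.0% and 42.9%, against 45.8% and 38.1% with 4OH-tamoxifen. For *Igf1* the libraries went opposite ways, at 68.0% and 28.6% untreated and 47.5% and 52.4% with 4OH-tamoxifen, where only 7 untreated members lacked *Sst*.

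Genes outside the rule were compared between the 112 members and the other 345 inhibitory neurons in each library, as the ratio of CPM after 10 CPM was added to both. The rule chose both sets of cells on their own transcripts, so the counts are descriptions with no test. Of 7089 genes tested, with at least 20 CPM over all inhibitory neurons and at least 10 UMIs in each library, 36 (0.508%) were at least 2-fold higher in members in both libraries, and 103 (1.45%) at least 2-fold lower in both. Members are the smaller set, so a gene found only in them needed a higher level to be tested than one found only in others. With no minimum CPM the counts were 46 and 121, and the part of the filter in their balance was not tested. In single libraries the counts were larger, 139 higher and 345 lower in the untreated library and 80 and 202 with 4OH-tamoxifen, and 4 genes were past 2-fold in opposite directions.

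At the fixed depth of 2000 UMIs the shares were smaller but kept their order between members and other inhibitory neurons for the 10 genes looked at. *Reln* was then found in 34.8% of members and 7.62% of others, *Calca* in 27.7% and 6.10%, and *Igf1* in 31.2% and 5.79%. *Nfix* was found in 55.4% and 16.2%, *Nfib* in 52.7% and 25.3%, and *Bhlhe22* in 48.2% and 12.2%. *Epha5* was found in 89.3% and 39.9%, and *Lmo7* in 16.1% and 2.44%. On the lower side *Zfhx3* was found in 1.79% and 18.9%, and *Nos1* in 1.79% and 10.7%. Shares in the paragraphs that follow are at full depth.

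**Figure D2:**
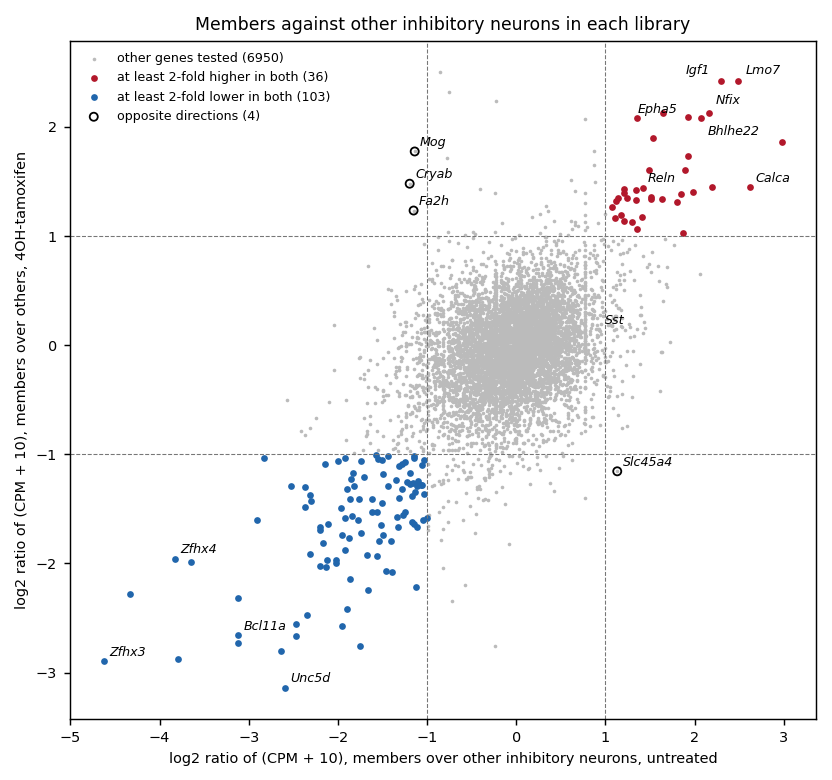
Log2 ratio of CPM plus 10 in members over other inhibitory neurons, in the untreated (horizontal axis) and the 4OH-tamoxifen library (vertical axis), 1 point per gene of the 7089 tested, with dashed lines at 2-fold. The 36 genes higher in both libraries lie at the upper right, the 103 lower ones at the lower left, and 4 genes, circled, have opposite directions.

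Transcription factors were found on both sides. Of 37 tested factors of neuronal lineage and identity, 6 were at least 2-fold higher in members in both libraries (*Bhlhe22*, *Nfia*, *Nfib*, *Nfix*, *Skor1* and *Tcf4*), or 16.2%, and 9 were lower (among them *Bcl11a*, *Lhx1*, *Onecut2*, *Pax8*, *Tshz2*, *Tshz3*, *Zfhx3* and *Zfhx4*), or 24.3%, against 0.508% and 1.45% of all genes tested. The median log2 ratio of the list was 0.06, and that of all genes tested -0.03. As background, in the spinal cord and hindbrain *Nfia*, *Nfib* and *Nfix*, the nuclear factor I genes, mark late-born neurons, while *Zfhx3*, *Zfhx4* and *Onecut2* mark neurons born earlier.

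*Nfix* was found in 91.1% (84.2 to 95.6) of members and 31.3% of other inhibitory neurons. It stood at 431 CPM in members and 88.9 CPM in others in the untreated library, and at 518 and 111 CPM with 4OH-tamoxifen. *Nfib* was found in 86.6% of members and 39.4% of others, and *Nfia* in 98.2% and 52.8%. The 3 genes were also found in microglia-marked cells, at 22.3% for *Nfix*, 12.9% for *Nfib* and 34.7% for *Nfia*, as was *Tcf4* at 43.8%, and whether that is free RNA or expression of their own was not tested. *Bhlhe22*, a basic helix-loop-helix factor of dorsal interneurons, had a low background of 1.58% and was found in 75.0% (65.9 to 82.7) of members and 20.6% of others. Its level was 305 CPM in members and 65.2 CPM in others in the untreated library, and 318 and 67.6 CPM with 4OH-tamoxifen. *Skor1*, a transcriptional corepressor, was found in 48.2% of members and 11% of others, with a background of 0.352%.

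Among the lower factors, *Zfhx3* was found in 4 members, 3.57% (0.982 to 8.89), each with 1 UMI, and in 32.2% of other inhibitory neurons. In the untreated library it had 0 UMIs in members and stood at 237 CPM in others, and with 4OH-tamoxifen at 10.1 and 140 CPM. Microglia-marked cells had it at 52.9%, and of the other 4 groups the lowest share was 12.3% (5.08 to 23.7), in the Fst Gpc4 group. *Bcl11a*, a zinc finger factor, was found in 0 of 112 members, with the same upper limit of 2.68%, and in 19.7% of others. At a floor of 3 UMIs over all members, its level was at most 0.0730 times that of the others. *Lhx1*, a LIM homeobox factor of inhibitory interneuron lineages, was also at 0 in members and in 13% of others, at most 0.141 times their level by the same floor. *Zfhx4* was found in 3 members and 23.8% of others, and *Pax8* in 3 members and 14.5% of others. *Zfhx3*, *Bcl11a* and *Zfhx4* had their highest shares in the Cck Tfap2b group, where *Zfhx3* was found in 67.1% of cells, *Bcl11a* in 53.7% and *Zfhx4* in 54.9%. *Lhx1os*, which lies beside *Lhx1*, was found in 1 member and 27.0% of others. Its level over both libraries was 1.45 CPM in members and 6.81 CPM in the Tac2 Tacr3 group. In the Cck Tfap2b and Crhbp En1 groups it was 223 and 120 CPM. Counting by strand is not stated in the sources used here, so reads of *Lhx1* and *Lhx1os* may not be separable.

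**Figure D3:**
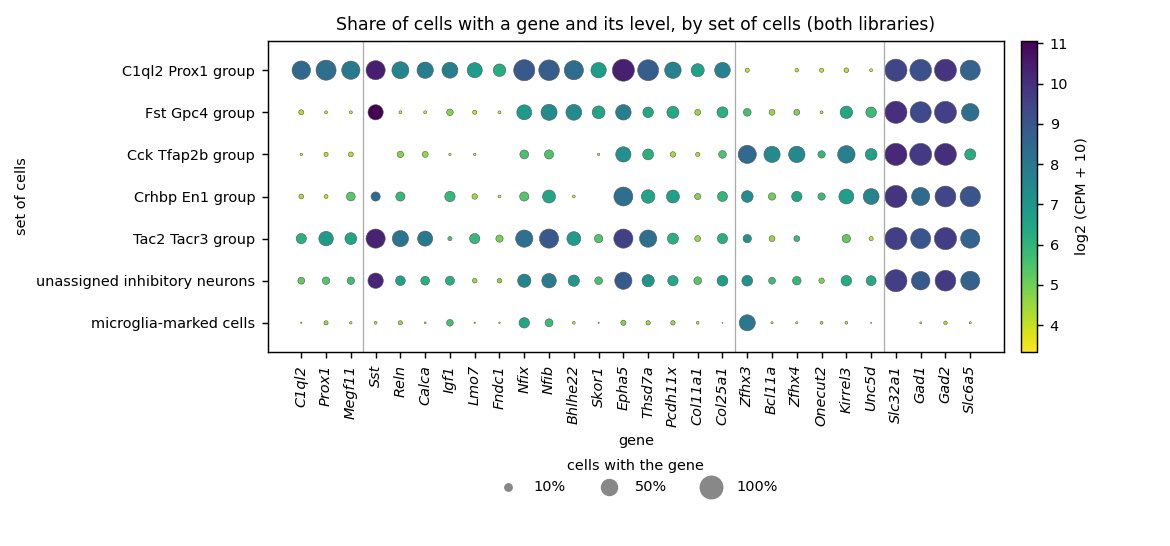
Share of cells with each gene (dot size) and its level as log2 of CPM plus 10 (colour), for genes in columns and sets of cells in rows, both libraries together. From left to right are the 3 rule genes, *Sst* and genes higher in members, genes lower in members, and the 4 genes by which inhibitory neurons were defined, and *Zfhx3*, at 3.57% of members, is found in 52.9% of microglia-marked cells.

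Genes for secreted signals formed the next set. *Igf1*, insulin-like growth factor 1, was found in 58 members, 51.8% (42.1 to 61.3), and in 11.6% (8.41 to 15.5) of other inhibitory neurons. It stood at 156 CPM in members and 23.7 CPM in others in the untreated library, and at 243 and 37.1 CPM with 4OH-tamoxifen, a ratio of 4.93 and 5.36 after 10 CPM was added. Microglia express *Igf1* themselves, and 9.15% of microglia-marked cells had it, below the share in members. *Calca*, which encodes calcitonin and calcitonin gene-related peptide, was found in 61 members, 54.5% (44.8 to 63.9), and in 11% of others, with a background of 0.704%. Its level was 366 CPM in the untreated members and 109 CPM in the others of the group, and in both libraries it exceeded the 51.3 and 33.5 CPM of the others. *Crh*, corticotropin-releasing hormone, was below the minimum for the ratio but was found in 18 members, 16.1% (9.81 to 24.2), in 4 other inhibitory neurons, 1.16%, and in 0 of 1137 microglia-marked cells, an upper limit of 0.264%.

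In all, 16 genes for neuropeptide precursors and their processing were tested. *Calca* was the 1 higher gene (6.25%), and *Gal* and *Scg2* were lower (12.5%), beside 0.508% and 1.45% of all genes tested. *Scg2*, secretogranin II, a dense core vesicle protein, was found in 47.3% of members and 68.7% of others, at 153 against 701 CPM in the untreated library and 141 against 610 CPM with 4OH-tamoxifen. *Gal*, galanin, was found in 1 member. *Penk*, the enkephalin precursor, was found in 3 members, all untreated, and in 11.9% of others. None of 5 tested neuropeptide receptors passed 2-fold in either direction, and *Sstr1* and *Sstr2*, which encode somatostatin receptors, were found in 2 and 1 members.

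Adhesion and guidance genes lay on both sides, with lower genes in the majority as among all genes tested (0.508% higher and 1.45% lower). Of 67 tested, 4 were higher (*Epha5*, *Lrrtm1*, *Pcdh11x* and *Sema3a*), 5.97%, and 10 were lower (*Efna5*, *Epha4*, *Kirrel3*, *Ntng1*, *Nxph4*, *Pcdh19*, *Pcdh7*, *Sdk2*, *Slit2* and *Unc5d*), 14.9%. The ephrin receptor *Epha5* was found in 111 of 112 members and in 59.1% of others, with a background of 5.54%. Its level was 1214 CPM in members and 312 CPM in others in the untreated library, and 1412 and 323 CPM with 4OH-tamoxifen. *Lrrtm1*, a postsynaptic leucine-rich repeat protein, was found in 56.2% of members and 20.6% of others, and the protocadherin *Pcdh11x* in 55.4% and 22.0%. On the other side, the netrin receptor *Unc5d* was found in 2 members, 1.79% (0.217 to 6.30), and 27.0% of others, and the immunoglobulin protein *Kirrel3* in 5 members and 37.1% of others. *Unc5d* was also low in the Tac2 Tacr3 group, at 6.81 CPM over both libraries against 2.90 CPM in members. It was highest in the Crhbp En1 group, at 182 CPM. *Epha5* and its relative *Epha4* thus lay on opposite sides, and the ligand *Efna5* was lower in members.

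The remaining genes with the largest ratios were of several kinds. *Lmo7*, a LIM domain protein of cell junctions, had the largest ratio over both libraries, 5.40 after 10 CPM was added, and was found in 46.4% of members and 5.22% of others, with a background of 0.440%. It stood at 102 against 9.87 CPM in the untreated library and 106 against 11.6 CPM with 4OH-tamoxifen. *Fndc1*, with fibronectin repeats, was found in 32.1% of members and 2.90% of others. The collagen genes *Col11a1*, *Col8a1* and *Col25a1* were found in 34.8%, 33.0% and 50% of members and in 8.12%, 7.54% and 20.3% of others. *Thsd7a*, a thrombospondin-domain protein, was found in 89.3% and 31.6%, and *Mgat4c*, a glycosyltransferase, in 81.2% and 31.3%. *Hhip*, which encodes a hedgehog-binding protein, was found in 28.6% and 4.35%, and *Mpped1* in 29.5% and 6.96%. *Kctd12*, an auxiliary subunit of GABA-B receptors, was found in 67.9% of members and 23.8% of others, and in 57.2% of microglia-marked cells. Of the lower genes not yet named, *Atp2b4*, a plasma membrane calcium pump, was found in 5 members and 31.9% of others, and *Mpped2* in 5 members and 25.8%. Over both libraries *Atp2b4* stood at 7.24 CPM in members and 11.2 CPM in the Fst Gpc4 group, against 232 CPM in the Cck Tfap2b group. For *Mpped2* the same sets stood at 7.24, 16.8 and 297 CPM. *Uts2b*, the urotensin II-related peptide, was at 0 in members but was found in only 15 other inhibitory neurons, whose 150 UMIs set its level.

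In the lists of receptors and channels 0 genes were at least 2-fold higher in members in both libraries, a count near the background of 0.508% of all genes tested. The shares of lower genes stand beside 1.45% of all genes tested, and each rests on 1 to 3 genes. Among 20 tested ionotropic glutamate receptor genes and their auxiliary subunits, *Cacng5*, *Neto1* and *Neto2* were lower (15%), of which *Neto1* and *Neto2* bind kainate receptors. Among 17 GABA and glycine receptor genes *Gabrb1* was lower (5.88%), and among 15 metabotropic and monoamine receptor genes 3 were (20%), *Adra1b* and *Chrm2* among them. *Kcnq3*, an M-current subunit, was the 1 lower gene of 33 potassium channel genes (3.03%) and was found in 6.25% of members and 32.8% of others. Of 26 sodium, calcium and pacemaker channel genes *Cacna2d3* and *Scn3b* were lower (7.69%), *Cacna2d3* in 4.46% against 30.7% of cells. Of 11 genes for proton-sensing receptors and channels, a list of interest in a region that senses carbon dioxide, *Asic4* was lower (9.09%), at 5.36% of members and 23.8% of others.

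Genes near the rule genes in family or function were tested as well, again beside 0.508% higher and 1.45% lower of all genes tested. Of 15 C1q-like and cerebellin organizers and their partners, 0 passed 2-fold in either direction in both libraries. *Adgrb3*, the adhesion receptor that binds C1q-like proteins, was found in 52.7% of members and 52.2% of others, a ratio of 0.977 (0.777 to 1.22), and *Nrxn3*, a neurexin, in 99.1% and 94.8%, a ratio of 0.767 (0.702 to 0.837). Among 6 MEGF and EGF-repeat genes *Dlk1* was lower (16.7%), at 0 in members and in 5.80% of others. Of 9 interneuron class markers *Reln* was higher (11.1%) and *Calb2*, *Nos1* and *Pvalb* were lower (33.3%). The counts were 0 for 7 inhibitory transmitter genes outside the rule and for 1 Hox gene and 2 immediate early genes. Of 10 neuron markers the RNA-binding protein gene *Elavl4* was lower (10.0%), found in 32.1% of members and 61.2% of others.

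To see whether members resembled each other in genes that did not choose them, a graph of 16 nearest neighbours (8 per library) was built over the 457 inhibitory neurons from 1000 variable genes, with all 22 rule genes left out. On average 77.1% of a member's neighbours were members, against 24.5% of all inhibitory neurons. The neighbours also matched across libraries. For untreated members, 80.5% of their 4OH-tamoxifen neighbours were members, where members were 22.0% of that library's inhibitory neurons, and for 4OH-tamoxifen members 78.9% of their untreated neighbours were, where members were 34.0%. Transcripts of other genes come from the same cells as those of the rule, so these shares describe how the cells group and are no test of the group.

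The edge of the group was less sharp. The 50 members with a sum of 5 or more had 83.0% members among their neighbours, the 41 with 3 or 4 had 73.3%, and the 21 at the lowest sum 70.2%. Unassigned neurons with a sum of 1 had 40.1% (24 cells), and those with a sum of 0 had 13.2% (81 cells). Of the other groups, the Tac2 Tacr3 group came nearest by this measure, with 36.2% members among its neighbours. Cells of its own group were fewer there, at 24.6%, so in this graph it did not stand apart from members. The Fst Gpc4 group followed at 11.3% members, the Crhbp En1 group at 4.2% and the Cck Tfap2b group at 2.36%. In a Leiden clustering of the same graph, 97 of 112 members (86.6%) fell in 1 cluster of 142 cells, which also took 20 of the 28 cells of the Tac2 Tacr3 group and held 38 untreated and 104 4OH-tamoxifen cells. Of the other members 8 fell in the cluster that held most of the Fst Gpc4 group and 7 in a small cluster of 23 cells.

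**Figure D4:**
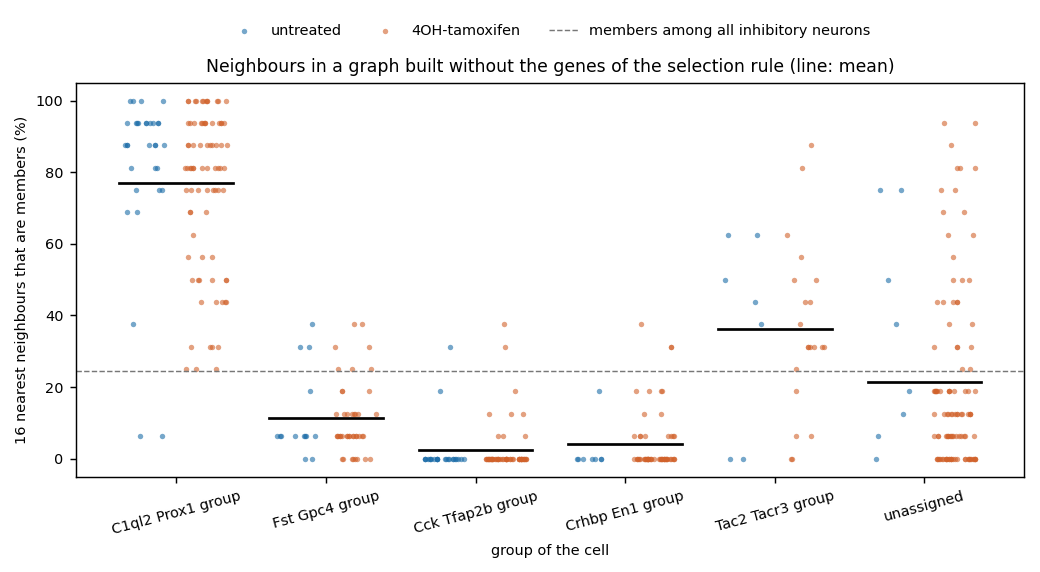
Percent of a cell's 16 nearest neighbours that are members (vertical axis), for each inhibitory neuron by group (horizontal axis) and library (colour), in a graph built without the 22 genes of the rule. Black lines are means, 77.1% in members and 36.2% in the Tac2 Tacr3 group, and the dashed line is the 24.5% of members among all inhibitory neurons.

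The Tac2 Tacr3 group shared a part of the members' genes. It had *Sst* in 75.0% of its 28 cells, *Reln* in 53.6%, *Calca* in 46.4% and *Nfib* in 75.0%. Its summed level was above that of members for *Reln* (266 against 175 CPM over both libraries) and *Nfib* (484 against 429 CPM). For *Calca* it was 266 CPM untreated and 223 CPM with 4OH-tamoxifen, below the 366 CPM and above the 109 CPM of members. *Nfix*, at 286 against 481 CPM, and *Epha5*, at 750 against 1328 CPM, were lower than in members but above the pooled other inhibitory neurons. *Thsd7a* went opposite ways by library, at 418 against 394 CPM untreated and 234 against 452 CPM with 4OH-tamoxifen. So did *Hhip*, at 76.0 against 50.9 CPM and 21.3 against 63.2 CPM. *Lmo7* stood at 47.7 against 104 CPM over both libraries. Of the genes lower in members, *Unc5d* and *Lhx1os* were low in this group too, each at 6.81 CPM. *Zfhx3* was not, at 129 against 5.79 CPM. The contrast of members with the pooled others thus does not hold for each of these genes against the Tac2 Tacr3 group. It differed in others: *Igf1* was found in 1 of its 28 cells, 3.57% (0.0904 to 18.3), against 51.8% (42.1 to 61.3) of members, *Skor1* in 14.3% (4.03 to 32.7) against 48.2%, and *Bhlhe22* in 39.3% (21.5 to 59.4) against 75.0%. The Fst Gpc4 group had *Bhlhe22* in 50.9% and *Skor1* in 33.3% of its 57 cells, *Igf1* in 8.77%, and *Reln* and *Calca* in 1.75% each. Over 7089 genes the log2 profile of members correlated with that of the Fst Gpc4 group at r = 0.91, the Tac2 Tacr3 group at 0.91, the Crhbp En1 group at 0.89 and the Cck Tfap2b group at 0.88. The order depended on the library: for the Tac2 Tacr3 group r was 0.80 untreated, below the 0.83 of the Cck Tfap2b group, and 0.87 with 4OH-tamoxifen, below the 0.88 of the Crhbp En1 group. Over both libraries the share of genes 2-fold apart from members was largest for the 28 cells of the Tac2 Tacr3 group, 7.76%. It was smallest for the Fst Gpc4 group, 5.68%. The untreated profiles rest on 7 cells of the Tac2 Tacr3 group and 25 of the Cck Tfap2b group, so depth differed with r and its part was not tested. This correlation is across genes, which are not independent, and all profiles share libraries.

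Members of the 2 libraries were compared last, by values only. *Cldn11*, *Mag*, *Gsn* and *Ugt8a*, of which most serve myelin, were among the 5 genes with the largest ratios toward 4OH-tamoxifen. *Cldn11*, a tight junction protein of myelin, stood at 81.4 CPM in the untreated members and at 654 CPM in those of the 4OH-tamoxifen library, a ratio of 8.04 (5.28 to 12.8). These values moved with a few cells. The 7 oligodendrocyte markers (among them *Mbp*, *Mog*, *Mobp*, *Mag*, *Opalin* and *Cldn11*) took a median of 0.392% of UMIs in untreated members and 0.597% in 4OH-tamoxifen members, but more than 2% in 7 of the 80 4OH-tamoxifen members and in 0 of the 32 untreated ones. Scrublet, which scores likely doublets, marked 5 of these 7 at its automatic threshold. Without such cells *Cldn11* stood at 113 CPM in 4OH-tamoxifen members and *Mag* at 70.1 CPM, against 81.4 and 47.5 CPM untreated. Toward the untreated library the largest ratios among the ranked genes were those of *Calca*, *Nptx2*, *Psmd14*, *Fabp3* and *Qsox1*. *Calca* kept its direction without the oligodendrocyte-rich cells, at 131 CPM in 4OH-tamoxifen members against 366 CPM untreated. *Nptx2*, neuronal pentraxin 2, stood at 105 CPM in the untreated members and at 32.8 CPM in those with 4OH-tamoxifen, while other inhibitory neurons had 27.6 and 47.3 CPM.

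**Figure D5:**
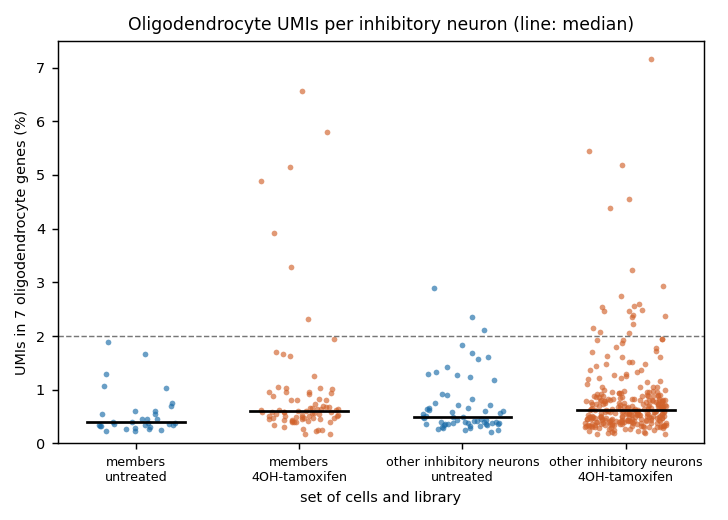
Percent of each inhibitory neuron's UMIs in 7 oligodendrocyte marker genes (vertical axis), for members and other inhibitory neurons of each library (horizontal axis), with black lines at medians and a dashed line at 2%. In all, 7 of 80 4OH-tamoxifen members and 0 of 32 untreated members lie above 2%, as do 21 of 283 and 3 of 62 other inhibitory neurons.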

How the data were processed

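The values the authors deposited are raw UMI counts, a matrix of genes by barcodes for each library, with nothing normalized. Per the submitters' processing notes bcl2fastq 2.18.0.12 and Cell Ranger 2.2.0 were used, with builds named mm10 and GRCm38. The study's methods name a removal of doublets with Scrublet, whether before or after deposit is not settled here, and none were removed for the main values. Scrublet (scanpy 1.11.5) with 2 simulated doublets per barcode served for alternatives, and its automatic threshold marked 0.159% of untreated and 5.31% of 4OH-tamoxifen barcodes. Members, gene lists and comparisons were chosen with earlier results of these data known. Cells were filtered and assigned as stated above, UMIs were summed over cells per library and divided by the total (CPM, per 1000000 UMIs), and intervals were Clopper-Pearson for shares, Poisson for sums and exact conditional for ratios. Thinning drew 2000 UMIs per cell without replacement. The named genes were the 18 lists (597 genes), the 20 highest and 10 lowest of the genes past 2-fold in both libraries (at least 50 CPM in the higher set), the 8 highest and 5 lowest in members with *Sst* against those without, and 5 each way between libraries. *Xist*, *Tsix* and Y-linked genes were left out, and a few genes that the rule names are not reported here. Neighbours used cosine distance on 25 principal components, and Leiden clustering a resolution of 0.7. Of 28692 genes, 28339 matched GENCODE M21 by Ensembl identifier, which gave positions. The ratio, intervals and thinning were tested on simulated data. The alternatives changed the cell filters, doublets, the rule, the gate, the fold settings and the graph, and 2 of them, on oligodendrocyte UMIs and shared barcodes, were chosen after seeing the data.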

Additional observations from a re-analysis of the deposited data

Results flagged for a closer look

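Of the genes tested, 4 were past 2-fold in members against other inhibitory neurons in opposite directions in the 2 libraries. The difference was not tested, since each condition has 1 library. *Mog* had a ratio of 0.454 untreated and 3.42 with 4OH-tamoxifen, *Cryab* 0.437 and 2.79, and *Fa2h* 0.450 and 2.35, all after 10 CPM was added. In the untreated library these rested on 5, 8 and 1 UMIs in members. *Mog* and *Fa2h* are myelin genes. Without cells whose oligodendrocyte markers exceed 2% of UMIs, *Mog* stood at 36.6 CPM in 4OH-tamoxifen members and 34.1 CPM in other inhibitory neurons of that library. *Cryab* then stood at 76.2 and 61.9 CPM, and *Fa2h* at 15.2 and 11.9 CPM. In the untreated library members stayed below others without such cells, at 17.0 and 26.6 CPM for *Mog*, 27.1 and 73.5 CPM for *Cryab*, and 3.39 and 18.4 CPM for *Fa2h*. *Slc45a4* went the other way, with a ratio of 2.19 untreated and 0.449 with 4OH-tamoxifen, and rested on 15 and 11 UMIs in members. Without the same cells it stood at 50.9 CPM in untreated members and 18.4 CPM in others, and at 33.5 and 76.9 CPM with 4OH-tamoxifen.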

How the results depend on the processing

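No paired analysis was possible because each condition has 1 library. Of 152 values recomputed under the alternatives, 124 stayed within the reported value's counting interval or, for counts of cells and genes, within 1.5 times of it, 28 did not and 0 turned direction, and the cause of the moves was not tested. At most 10% mitochondrial UMIs left 65 members, with an *Sst* ratio of 1.29 and 23 higher genes. A minimum sum of 3 gave a share of members of 19.9%, and no condition on the other sums 29.1%. Without *C1ql2* in the rule the share was 19.3% and that with *Nos1* 1.14%. Without *Prox1* 73 members were left, 16% of inhibitory neurons, with 58.5% members among neighbours. Without *Megf11* the share was 18.2%, the *Sst* ratio 1.32 and members among neighbours 61.7%. The *Sst* ratio was 1.65 without doublets at the expected rate and also 1.65 without cells rich in oligodendrocyte UMIs, 1.23 as a mean over cells, 1.21 after thinning and 1.73 against the other 4 groups alone. The share with *Sst* was 61.6% after thinning and 59.8% at a minimum of 2 UMIs, and that with *Nos1* was 0.0% at a minimum of 2 UMIs. The *Nos1* interval runs from 1.47 to 10.1%, and 1.54% at most 10% mitochondrial UMIs and 1.79% after thinning lay inside it. After thinning 59 genes were higher and 149 lower. The counts of higher and lower genes were 56 and 167 with 1 CPM added, 12 and 24 with 50 CPM added, and 11 and 21 at a minimum of 100 CPM. Depth limits the genes found in few cells, where 1 UMI decides.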

Other observations

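Members with and without *Sst* were compared gene by gene, on low counts. *Gnb4*, a G protein beta subunit, had 33 UMIs in members with *Sst*, in 34.5% of those cells, and 0 in the 28 members without. *Sh2d5*, *Ttl*, *Htra2*, *Cds1*, *Dyrk1a*, *Grm4* and *Evi5* followed, with ratios from 3.76 to 3.14 over both libraries after 10 CPM was added and 1 or 2 UMIs in the members without *Sst*. Untreated and with 4OH-tamoxifen the ratio was 9.21 and 2.42 for *Ttl*, 7.48 and 2.48 for *Sh2d5*, and 7.05 and 2.64 for *Cds1*. For *Grm4* it was 2.11 and 6.37, and the libraries differed less for *Htra2*, *Dyrk1a* and *Evi5*. The lowest were *Tshz2*, *Rint1*, *Nxph4*, *Mab21l2* and *Smox*, with ratios from 0.268 to 0.297 over both libraries. For *Nxph4* the ratio was 0.0741 untreated and 0.985 with 4OH-tamoxifen, and for *Rint1* 0.723 and 0.196, so that each rested mainly on 1 library. *Tshz2*, a zinc finger factor, was found in 8.33% of members with *Sst* and in 28.6% of those without. Of *Nxph4*, a neurexophilin, 19 of the 24 UMIs in members without *Sst* came from the untreated library. These genes were picked as the most extreme, so they differ by construction, and no test was made.

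RefSeq windows were found for 23 of the 36 genes higher in members and for 68 of the 103 lower ones. GGGCGG was in 18 of the 23 and in 43 of the 68, TATAAA in 3 and 8, and TGACGTCA in 1 and 2. Over the 27025 genes with windows searched the shares were 38.2%, 15.7% and 2.03%. Windows on chromosome 18 were left out of these counts. The shares over all genes include those not expressed in these cells.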
